A study of Mus musculus with 40 samples.

Results

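A set of 9 genes that mark myelin and the oligodendrocytes that make it were followed across the cortex of Trem2 H157Y knock-in mice with and without amyloid pathology. The genes were Mbp, Mobp, Cldn11, Mog, Mag, Opalin, Cnp, Ugt8a and Ermn. They were taken by name from the table of gene counts, which lists 43346 genes, and all 9 were found in it and passed the filter on low counts that left 21253 genes to test.

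The 40 mice made up 4 groups of 10, each with 5 females and 5 males, and poly-A RNA of pulverized cortex was sequenced from every mouse. The amyloid mice were 8.5 months old and were hemizygous for the 5xFAD transgenes, which bear familial Alzheimer's disease mutations and are driven in neurons by the Thy1 promoter, and the non-amyloid mice were 6 months old and carried no transgene. In each cohort the mice were either WT at Trem2 or homozygous (Hom) for the H157Y mutation, which had been introduced by CRISPR/Cas9 and bred from 1 founder. Amyloid and non-amyloid mice therefore differed in both transgenes and age, and the contributions of these cannot be told apart.

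Oligodendrocytes wrap axons with sheets of membrane that are pressed together into myelin, which speeds conduction and supports the axon. The proteins of the sheath differ in where they sit. MBP and MOBP lie on the inner face of compacted membrane, claudin-11 seals the sheath with tight junctions, MAG faces the axon, MOG and opalin are on the oligodendrocyte surface, CNP and ermin lie in the non-compact cytoplasm, and UGT8 makes the galactolipids of the membrane. TREM2 is a receptor of microglia, the cells that clear damaged myelin and amyloid, so the comparison of Hom and WT mice asks whether the mutation in a microglial gene was accompanied by a change in the myelin genes.

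Between 41646271 and 105903846 reads were counted per library, with a median of 77193387. Amyloid Hom mouse 19 had the smallest library and stood apart in another way. Genes annotated as antisense took 0.66% of its counts against 0.0857% to 0.107% in the other 39 libraries. It was kept, and the call that was lost without it is given both ways. Trem2 was counted in every group, at 62.15 ± 24.4 CPM (counts scaled to the normalised library total, SD, n = 10) in amyloid WT, 33.9 ± 10.3 in amyloid Hom, 10.7 ± 2.13 in non-amyloid WT and 10.4 ± 1.59 in non-amyloid Hom mice. A missense change leaves the transcript in place, so its count does not check the genotype.

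By the coordinates of the count table (mm10), Mobp (chr9:120149742-120181484), Cnp (chr11:100574904-100591729) and Cldn11 (chr3:31149920-31164324) are on the plus strand. Ermn (chr2:58045113-58052864), Ugt8a (chr3:125865359-125938550), Mag (chr7:30899176-30914873), Mog (chr17:37010743-37023398) and Opalin (chr19:41062474-41077113) are on the minus strand. Mog shares its chromosome with Trem2 at a distance of 11.3 Mb. Exons of Cnp overlap those of Dnajc7 on the opposite strand over 154 bases, or 4.23% of its exon length, and exons of Ermn overlap those of Galnt5 over 237 bases, or 6.52%. The counting is not stated to have used strand, so reads from such bases cannot be assigned. Dnajc7 had a mean level of 194.7 CPM and Galnt5 of 0.226 CPM.

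RefSeq start sites (GRCm38.p6) were listed for 8 of the genes, in 10 windows of 250 bases before and 50 bases after the start. Windows of 5 genes are shown because the results below turn on their genes. Mobp and Ermn were called between cohorts in Hom but not in WT mice, close to the threshold. Ermn with Ugt8a and Mag with Cnp were pairs that varied together between mice. Each is printed 5′ to 3′ on the strand of its gene. Capitals mark matches, on either strand, to ACAAAG or ACAATG, the core letters bound by SOX factors such as SOX10, and to CTGGCAC, the core letters bound by MYRF, so that a match on the opposite strand reads as its reverse complement. TATAAA, the TATA box, was searched as well.
Mobp promoter: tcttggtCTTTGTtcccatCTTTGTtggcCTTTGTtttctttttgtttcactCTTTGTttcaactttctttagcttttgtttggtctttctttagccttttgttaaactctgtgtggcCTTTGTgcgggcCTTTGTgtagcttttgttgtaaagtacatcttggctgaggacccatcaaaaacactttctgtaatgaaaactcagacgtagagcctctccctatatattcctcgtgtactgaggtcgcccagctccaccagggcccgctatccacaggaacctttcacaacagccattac
Ermn promoter: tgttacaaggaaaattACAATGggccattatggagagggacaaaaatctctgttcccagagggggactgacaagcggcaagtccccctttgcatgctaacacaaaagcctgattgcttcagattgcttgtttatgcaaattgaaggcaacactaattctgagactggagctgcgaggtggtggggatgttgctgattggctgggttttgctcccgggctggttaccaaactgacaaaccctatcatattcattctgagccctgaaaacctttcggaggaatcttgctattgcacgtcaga
Ugt8a promoter: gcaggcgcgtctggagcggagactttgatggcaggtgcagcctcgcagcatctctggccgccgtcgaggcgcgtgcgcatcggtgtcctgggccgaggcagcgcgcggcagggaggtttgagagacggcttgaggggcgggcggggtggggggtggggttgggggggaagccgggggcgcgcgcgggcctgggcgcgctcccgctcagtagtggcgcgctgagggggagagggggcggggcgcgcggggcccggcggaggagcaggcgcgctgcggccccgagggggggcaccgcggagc
Mag promoter: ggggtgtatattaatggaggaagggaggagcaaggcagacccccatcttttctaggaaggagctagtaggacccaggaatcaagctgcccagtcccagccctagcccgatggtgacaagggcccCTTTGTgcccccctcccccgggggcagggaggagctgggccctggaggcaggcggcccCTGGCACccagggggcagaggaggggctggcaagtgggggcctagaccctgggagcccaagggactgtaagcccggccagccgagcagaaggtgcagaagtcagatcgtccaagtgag
Cnp promoter: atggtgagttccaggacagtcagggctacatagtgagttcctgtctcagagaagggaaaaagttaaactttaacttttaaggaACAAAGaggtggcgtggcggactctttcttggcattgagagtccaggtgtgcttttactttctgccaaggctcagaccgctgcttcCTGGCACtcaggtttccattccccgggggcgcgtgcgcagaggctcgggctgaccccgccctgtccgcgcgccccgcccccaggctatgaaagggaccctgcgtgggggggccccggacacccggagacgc
These windows lie at chr9:120149492-120149791 (Mobp), chr2:58052815-58053114 (Ermn), chr3:125938603-125938902 (Ugt8a), chr7:30914814-30915113 (Mag) and chr11:100574689-100574988 (Cnp). The Mobp window held 6 matches to ACAAAG, all on the opposite strand, with first bases from -243 to -120 relative to the start. Mag held a match to ACAAAG at -126 and a match to CTGGCAC at -68, and Cnp held the same pair at -167 and -81. Ermn held a single match to ACAATG, at -234, and Ugt8a held no match to any of the 4 motifs. Base composition also set these windows apart, with 78.3% GC in Ugt8a, 47% in Ermn and 43.3% in Mobp, against a median of 52.7% over all 32851 windows. No matches overlapped in the printed windows. Over all windows 18.7% held ACAAAG, 12.6% ACAATG, 5.01% CTGGCAC and 13.6% TATAAA, whereas among the 10 windows of these genes 5, 1, 4 and 0 did. Among the 3 Mag windows, 2 overlap and share their matches, and a match describes letters and not binding.

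Per kilobase of counted length the genes spanned a wide range of levels. Mbp was the most abundant at 181.8 ± 31.9 CPM per kb (SD over 40 mice), and Mobp followed at 111.8 ± 17.1. Cnp stood at 68.9 ± 9.53, Cldn11 at 42.5, Mog at 36, Mag at 27.5, Ermn at 23.3, Ugt8a at 17.8 and Opalin at 12.95 CPM per kb. The order was nearly the same in each mouse. Mbp exceeded Mobp, Mobp exceeded Cnp and Ermn exceeded Ugt8a in all 40 mice, and Cnp exceeded Cldn11 in 39. The neighbours least clearly ordered were Mag and Ermn, with Mag higher in 29 of 40 mice, and Cldn11 and Mog, with Cldn11 higher in 34. The ranges over mice overlapped for every neighbouring pair. The Mbp count also takes in the golli transcripts of the same locus, which other cells make too.

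**Figure D1:**
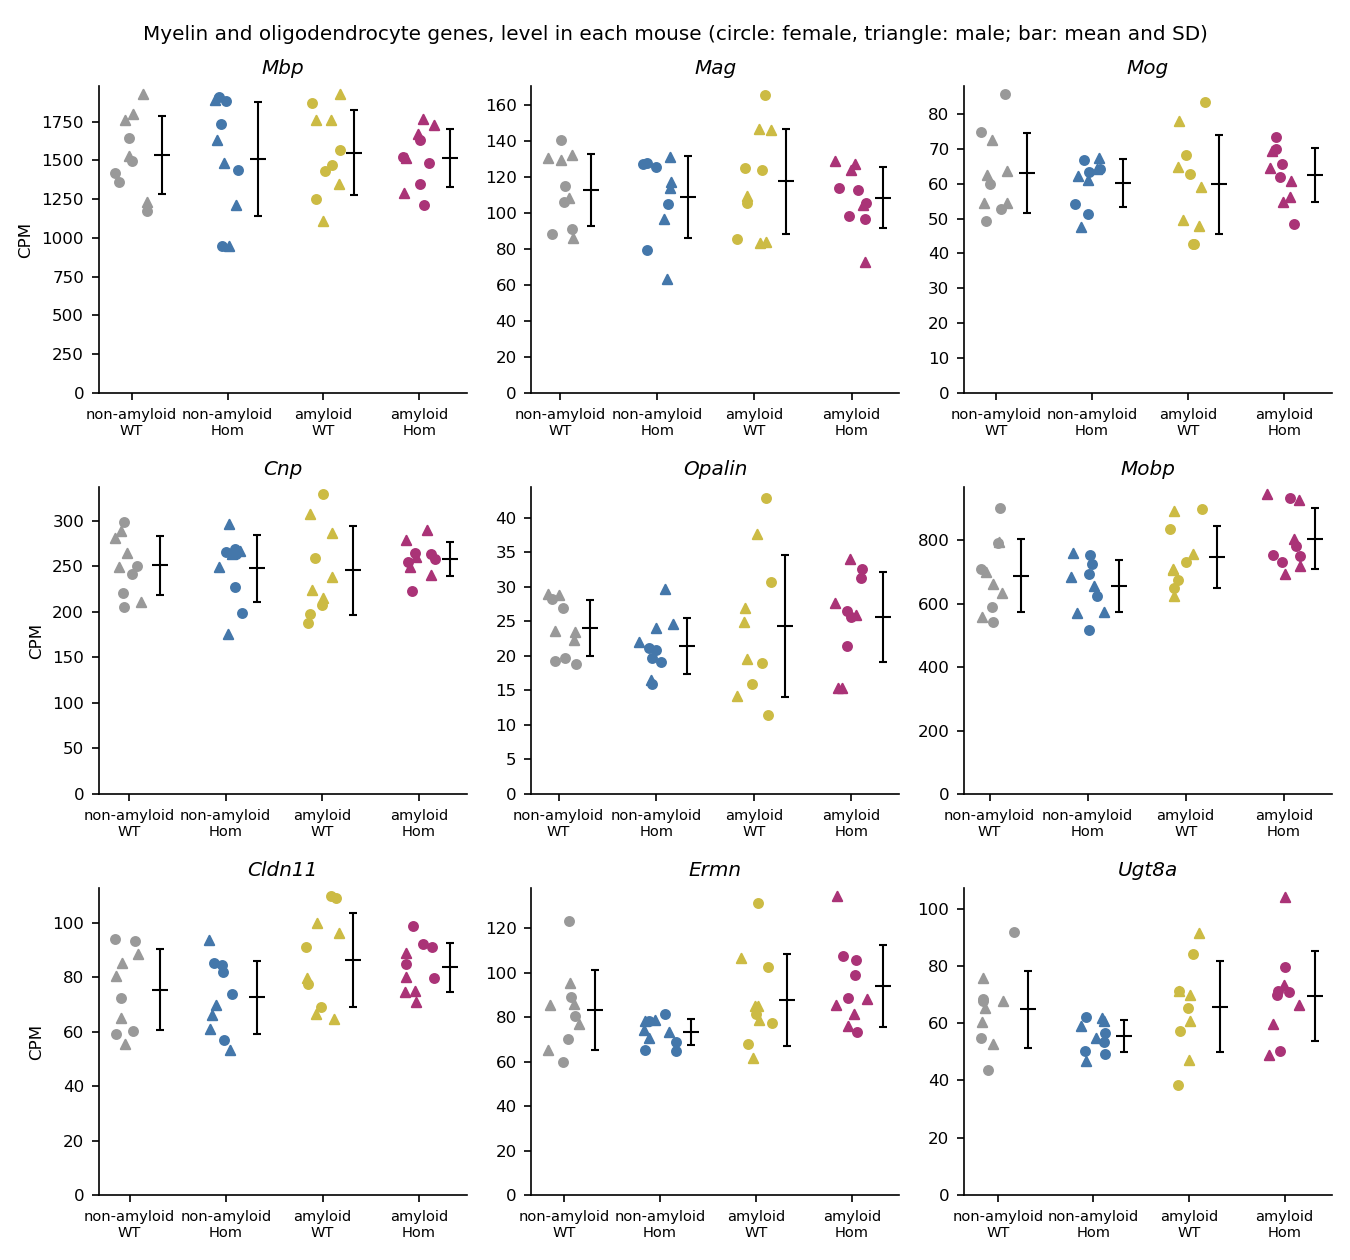
Level of each of the 9 genes in each of 40 mice, in CPM on an axis that starts at 0, by cohort and Trem2 genotype (circles female, triangles male, bars mean and SD of 10 mice). Within each cohort the WT and Hom mice overlapped for every gene, while 5 amyloid Hom mice for Mobp and 8 for Ermn lay above every non-amyloid Hom mouse.

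In amyloid mice no difference between Hom and WT animals passed the test for any of the 9 genes, and the values of both genotypes overlapped. Mbp was at 1215 to 1769 CPM in Hom mice (median 1521) and at 1112 to 1931 CPM in WT mice (median 1520). The Hom values lay inside the WT range. The log2 fold change of Mbp, Hom against WT, was -0.03 (SE 0.094, 95% interval -0.23 to 0.17, adjusted p = 0.914, edgeR quasi-likelihood test with Benjamini-Hochberg adjustment over all genes). In bulk tissue, fewer cells of a type and less RNA per cell cannot be told apart.

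Mag, the adhesion protein facing the axon, had the most negative value, at 108.4 ± 17 CPM in Hom and 117.5 ± 29 in WT mice (log2 fold change -0.115, SE 0.125, adjusted p = 0.744). Mobp had the most positive, at 805 ± 96.1 and 748.5 ± 97.2 CPM (0.105, SE 0.076, adjusted p = 0.655), and 3 Hom mice exceeded all WT mice. Opalin, a surface protein whose level varied most between mice, was at 25.6 ± 6.53 and 24.3 ± 10.3 CPM, with an interval of -0.365 to 0.51 on the log2 scale that is the widest of the 9. None of the 9 genes was called at an adjusted p under 0.05 and a log2 change over 0.25, where 0.0753% of all genes tested were, and 0 reached an unadjusted p under 0.05, where 9.67% of all genes did. DESeq2 and limma-voom also called 0 of the 9. The median log2 fold change of the 9 was 0.07, beside 0.00 over all genes. Without mouse 19, Mog was at 0.10 in place of 0.06 and Opalin at 0.04 in place of 0.07.

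Libraries also differed in how their levels ran with the GC content and length of transcripts, as described below, and fits with both trends as an offset were added after the data had been seen. With this offset Mag was at -0.02, Mobp at 0.16 and Cnp at 0.14 in amyloid Hom against WT mice, and 0 of the 9 were called.

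In non-amyloid mice all 9 genes had lower means in Hom than in WT animals, and no difference passed the test. With limma-voom and sample quality weights, Mbp, Cnp and Cldn11 were at 0.02, 0.01 and 0.01 on the log2 scale, and Mobp was at 0.00. Ugt8a, the enzyme of galactolipid synthesis, was at 46.9 to 62.3 CPM in Hom mice (median 55.75) and at 43.6 to 91.8 CPM in WT mice (median 66.4). The ranges overlapped, and the lowest value of both groups was a WT mouse. The log2 fold change of Ugt8a was -0.215 (SE 0.094, unadjusted p = 0.0319, adjusted p = 0.965 by the edgeR test), the only one of the 9 with an unadjusted p under 0.05. Ermn, a cytoskeletal protein of the sheath's cytoplasm, was at 73.4 ± 5.81 CPM in Hom and 83.25 ± 17.9 in WT mice (-0.175, SE 0.090, adjusted p = 0.965). With the GC and length offset Ugt8a was at -0.11 (unadjusted p = 0.184) and Ermn at -0.07, so the single p under 0.05 was lost. The other 7 lay, without it, between -0.16 for Opalin and -0.02 for Cnp. None of the 9 was called by edgeR, DESeq2 or limma-voom, where edgeR called 0.0329% of all genes, and 4.61% of all genes had an unadjusted p under 0.05, 2.29% being lower.

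The Hom mice of the non-amyloid cohort also had the smallest relative spread in these 2 genes. The coefficient of variation of Ermn was 7.92% in non-amyloid Hom mice against 19.6% to 23.5% in the other 3 groups, and that of Ugt8a was 9.98% against 20.5% to 24.2%. Mbp went the other way, with 24.5% in non-amyloid Hom mice and 12.4% to 17.7% elsewhere, with mice 4 and 6 at 950.5 and 950.3 CPM and the next at 1213 CPM. These spreads are descriptions and were not tested.

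The effect of H157Y in amyloid mice was then set against that in non-amyloid mice in a single fit of all 40 libraries. Ugt8a and Ermn had the largest differences between these effects, at 0.30 (SE 0.177, adjusted p = 0.536) and 0.28 (SE 0.161, adjusted p = 0.531) on the log2 scale. Mbp and Cldn11 were near 0, at -0.01 and 0.01. None of the 9 was called by edgeR, DESeq2 or limma-voom, and edgeR called 0% of all genes in this comparison. None of the 9 had an unadjusted p under 0.05, against 10.3% of all genes. With the offset the order changed, with Mobp at 0.28 (SE 0.136, unadjusted p = 0.044, adjusted p = 0.543) and Cnp at 0.21 ahead of Ugt8a at 0.13 and Ermn at 0.09, and 0 were called. Without mouse 19 Cldn11 was at -0.01.

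**Figure D2:**
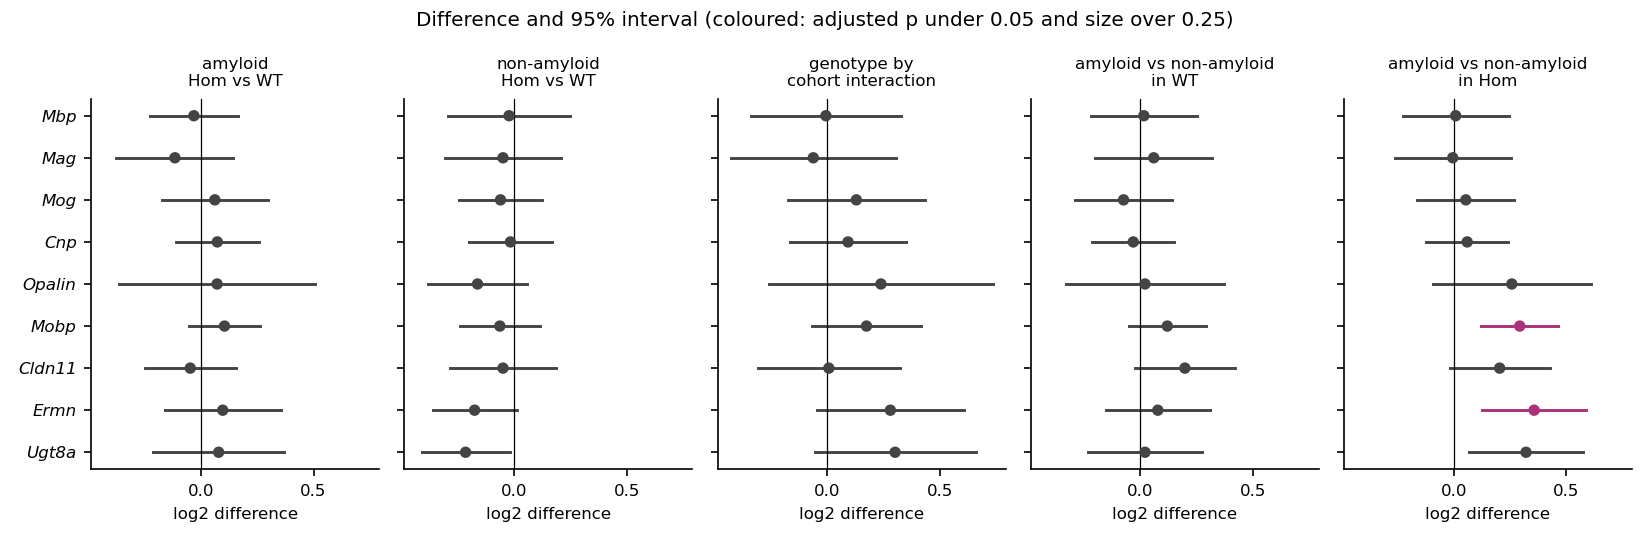
Difference in log2 expression (points) with its 95% interval (lines) for the 9 genes in the 2 genotype comparisons, their interaction and the 2 cohort comparisons, all on the same axis. Intervals of the 3 panels on the left cross 0 for every gene except Ugt8a in non-amyloid mice, and Mobp and Ermn, coloured, passed the threshold in the panel on the right.

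Amyloid and non-amyloid mice were compared separately within each genotype. In WT mice the myelin genes of the 2 cohorts overlapped. Cldn11, which forms the tight junctions of the sheath, had the largest difference, at 64.5 to 109.9 CPM in amyloid (median 85.3) and 55.55 to 94.2 CPM in non-amyloid WT mice (median 76.4). In all, 4 amyloid mice exceeded every non-amyloid mouse, and the log2 difference of 0.20 did not pass the test (SE 0.110, adjusted p = 0.317). Mobp differed by 0.12 (adjusted p = 0.472), and the remaining 7 genes lay between -0.075 for Mog and 0.08 for Ermn. None of the 9 was called by edgeR, DESeq2 or limma-voom, beside 7.95% of all genes by edgeR, and 0 had an unadjusted p under 0.05, beside 20.9% of all genes.

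In Hom mice Mobp and Ermn were higher in the amyloid cohort. Mobp was at 695.0 to 947.2 CPM in amyloid (median 767.9) and 517.3 to 761.0 CPM in non-amyloid Hom mice (median 670.9). Of the 10 amyloid mice, 5 exceeded all non-amyloid mice, led by mice 40, 33 and 39 at 947.2, 934.7 and 928.6 CPM. The log2 difference was 0.29 (SE 0.085, 95% interval 0.12 to 0.47, adjusted p = 0.0247 by the edgeR test).

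Ermn was at 73.1 to 134.4 CPM in amyloid (median 88.55) and 64.8 to 81.2 CPM in non-amyloid Hom mice (median 73.7). Of the 10 amyloid mice, 8 exceeded all non-amyloid mice, and only mice 33 and 25 lay inside their range. The log2 difference was 0.36 (SE 0.114, 95% interval 0.13 to 0.59, adjusted p = 0.0445). Ugt8a followed at 69.4 ± 15.7 against 55.5 ± 5.54 CPM, with 7 of 10 amyloid mice above all others, and its difference of 0.32 did not pass the adjusted threshold (SE 0.125, adjusted p = 0.112).

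The remaining 6 genes in Hom mice ranged from 0.00 for Mag to 0.26 for Opalin, and Mbp differed by 0.01 (95% interval -0.23 to 0.24). Without mouse 19 Mag was at 0.01. In all, 2 of the 9 genes were called in Hom mice, both higher, where 6.56% of all genes were called and 5.71% were called higher, and 3 had an unadjusted p under 0.05, where 22.6% of all genes did. DESeq2 and limma-voom called the same 2. The summed level of 6 microglia markers was 442.4 to 734.9 CPM in amyloid and 323.9 to 364.7 CPM in non-amyloid Hom mice, and that of 6 astrocyte markers 5073 to 6755 and 4540 to 5263 CPM, and their part in the difference was not tested. Because the interaction was not significant for Mobp or Ermn (adjusted p = 0.584 and 0.531), the cohort difference was not shown to differ between Hom and WT mice.

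Both calls were close to the threshold. Of 20 fits with one Hom library omitted at a time, Ermn lost its call in 13, among them the fit without mouse 19 (log2 difference 0.33, adjusted p = 0.0918) and that without mouse 39 (0.29, adjusted p = 0.116). Mobp lost its call in 3, without amyloid mouse 39 (0.27, adjusted p = 0.0522), amyloid mouse 40 (0.26, adjusted p = 0.0527) or non-amyloid mouse 23 (0.27, adjusted p = 0.0507), and kept it without mouse 19. With the per-library trends in transcript GC content and length as an offset, the Ermn difference was 0.16 (SE 0.088, adjusted p = 0.246) and that of Ugt8a 0.13 (adjusted p = 0.435), whereas Mobp stood at 0.31 (SE 0.096, adjusted p = 0.0278).

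No difference between females and males passed the test in these genes. Cldn11 had the largest difference, at 83.2 ± 15.1 CPM in 20 females and 75.7 ± 13.4 CPM in 20 males, a log2 difference of 0.13 (SE 0.076, adjusted p = 0.660). The other 8 lay between -0.07 and 0.04. None of the 9 was called by edgeR, DESeq2 or limma-voom, beside 0.358% of all genes by edgeR, and 0 had an unadjusted p under 0.05, beside 8.74% of all genes. Nor did any difference between the sexes in the effect of genotype. In either cohort 0 of the 9 were called by edgeR, DESeq2 or limma-voom, with 0% of all genes called by edgeR, and 0 of the 9 had an unadjusted p under 0.05, beside 5.29% of all genes in amyloid and 3.67% in non-amyloid mice. The largest such difference was that of Mbp in non-amyloid mice, at 0.38 (SE 0.260, adjusted p = 0.850). Its mean was 1582 CPM in Hom and 1419 CPM in WT females, and 1434 and 1650 CPM in Hom and WT males.

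The spread between mice of the same group was wide for these genes. The biological coefficient of variation estimated by edgeR was 26.9% for Opalin, 19.9% for Mag, 19.5% for Ugt8a, 18.3% for Mbp, 17.8% for Ermn, 17.2% for Cldn11, 16.7% for Mog, 14.3% for Cnp and 13.5% for Mobp. The median of the 10375 genes with a mean of at least 10 CPM was 11.2%, below all 9. Opalin ranged from 11.4 CPM in mouse 12 to 42.85 CPM in mouse 32, both of them amyloid WT.

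Some mice were high or low in the whole set. With each gene expressed as its deviation from the mean of the mouse's group, all 9 genes were above that mean in 5 mice, which were amyloid WT 32 and 36, non-amyloid WT 31 and non-amyloid Hom 21 and 37. All 9 were below it in 4 mice, which were amyloid WT 5 and 13, non-amyloid WT 17 and non-amyloid Hom 6. The highest and lowest means over the 9 genes were 1.52 SD in mouse 32 and -1.26 SD in non-amyloid Hom mouse 4. Other mice were split. Amyloid WT mouse 8 was at 2.44 SD for Ermn and -1.41 SD for Mag, and amyloid Hom mouse 39 was at 2.14 SD for Ermn and -1.71 SD for Opalin.

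**Figure D3:**
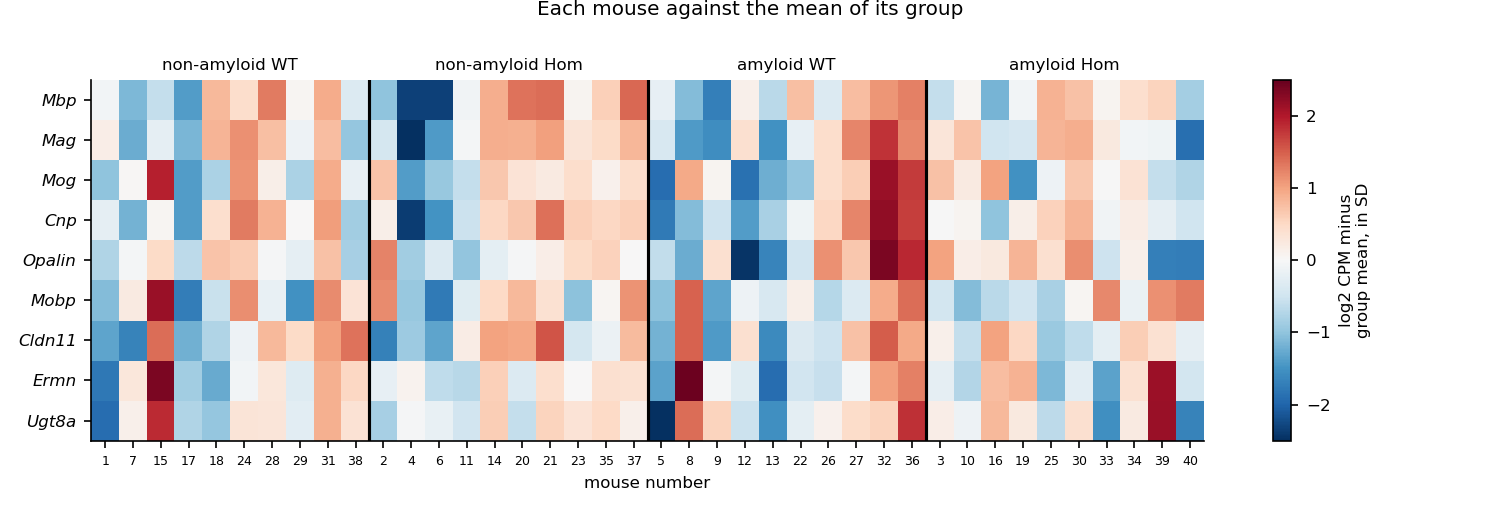
Deviation of each gene from the mean of its group in each of the 40 mice, in SD (red above, blue below), with the groups separated by black lines. Columns of one colour, such as mice 32, 36 and 31 (red) or 17 and 13 (blue), are mice in which the whole set was high or low. In mice 8, 15 and 39 the lower 4 genes were above the group mean and the upper 5 lay lower on average. Mog in mice 8 and 15, Cnp and Opalin in mouse 15, and Mbp in mouse 39 were above the group mean too.

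The genes rose and fell together from mouse to mouse. Over the 40 mice with group means removed, all 36 pairwise correlations of log2 CPM were above 0, with a median of 0.465. The closest pairs were Ermn with Ugt8a (r = 0.883), Mbp with Mag (r = 0.867) and Mag with Cnp (r = 0.843). The most distant were Mag with Ermn (r = 0.048), Mobp with Opalin (r = 0.090) and Mbp with Ermn (r = 0.094). Clustering on these correlations placed Mbp, Mag, Cnp, Mog and Opalin in one set and Mobp, Cldn11, Ermn and Ugt8a in the other. The median r was 0.668 within the first set, 0.582 within the second and 0.336 between them. The sets were drawn from these same correlations, so a higher r within than between them was fixed in advance. Single pairs crossed this line, with r = 0.297 for Mbp with Opalin within a set and 0.625 for Mog with Ugt8a between sets. The points of each correlation share a library and its depth, and are descriptions with no test.

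Other oligodendrocyte genes, 55 from 6 lists, were correlated with the means of the 2 sets. The examples were chosen after their values were seen. Pllp, a plasmolipin of the myelin membrane, followed the first set (r = 0.946, against 0.318 with the second), as did Sept4, a septin of the sheath (0.899 and 0.188). Tspan2, a tetraspanin of the membrane, was closer to the second set (0.859, against 0.442 with the first), and so was Anln, a scaffold of the sheath's septins (0.817 and 0.133). Of the 55 genes, 32 were nearer to the first set and 23 to the second, by a rule that places every gene however small the difference. Olig2 (0.263 and 0.260) and Hapln2 (0.416 and 0.437) were about as close to both sets, and Bmp4 (-0.058 and -0.330) followed neither. Myrf, which drives transcription of myelin genes, had r = 0.722 with the first set and 0.388 with the second. With the GC and length trends described below removed, the first r minus the second was -0.14 for Myrf and 0.018 for Tspan2. It kept its sign for Pllp (0.44), Sept4 (0.393) and Anln (-0.45).

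The split ran alongside the GC content of the transcripts. Ermn and Ugt8a have 38% GC in their longest annotated transcript, whereas Mag has 57.6% and Cnp 54.8%. Mbp has 51%, Cldn11 50.9%, Mog 50%, Mobp 53.3% and Opalin 45.8%, so the members do not divide by GC alone. Over the 55 other oligodendrocyte genes the difference between a gene's 2 correlations rose with its GC content (r = 0.821 across genes, which are not independent). Each library's own trend of log2 CPM with GC, measured on 14999 genes outside these lists, ran from -0.42 to 0.30 per 10% GC. With group means removed, this trend was correlated over the 40 mice with the difference between the 2 sets (r = 0.707).

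With that trend and a length trend subtracted, the 2 sets were closer. The correlation between their means rose from 0.457 to 0.660, that of Mag with Ermn rose from 0.048 to 0.627, and the median over 36 pairs was 0.549. Ermn with Ugt8a remained among the closest pairs (r = 0.812), and the closest were Mog with Cnp (r = 0.873) and Mog with Mag (r = 0.858). Clustering then set Mobp alone apart from the other 8 genes, and the lowest correlation was that of Mobp with Opalin (r = -0.012). Over the 55 other genes the relation with GC content was r = -0.041. The GC trend itself had medians of -0.09 in amyloid Hom, 0.05 in amyloid WT, 0.135 in non-amyloid Hom and 0.01 in non-amyloid WT libraries, and what lay behind it was not tested.

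**Figure D4:**
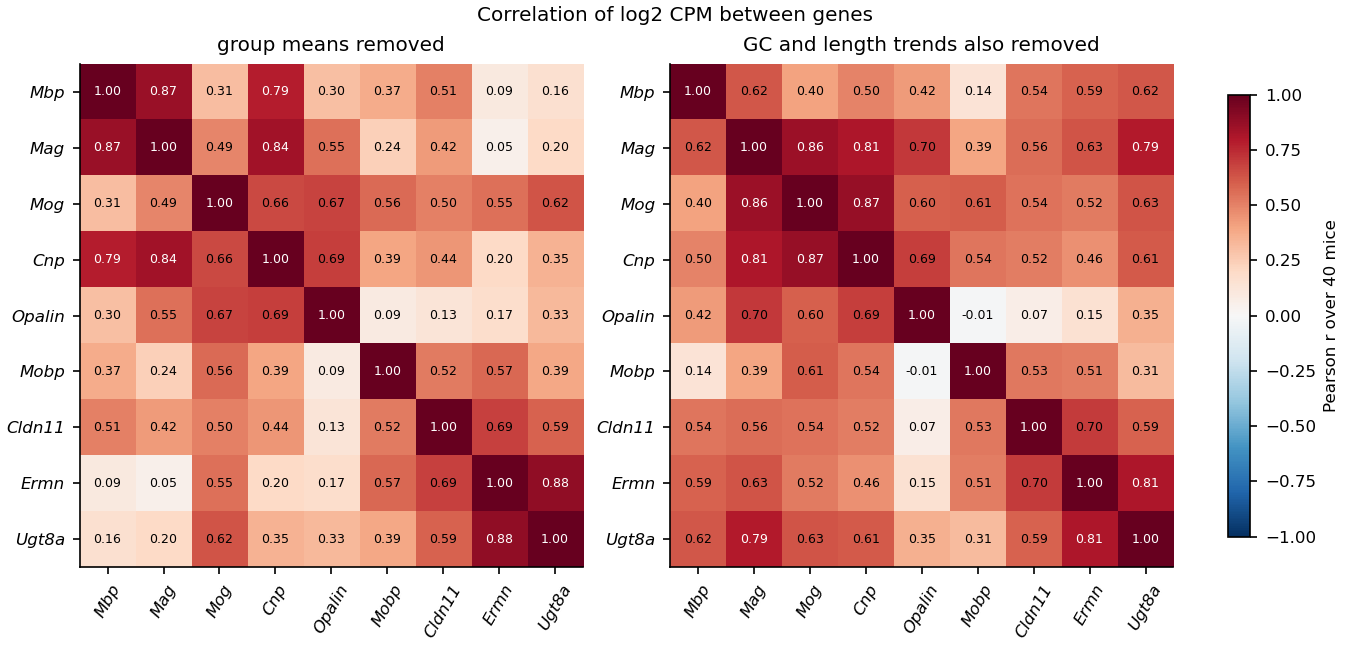
Pearson correlation of log2 CPM between the 9 genes over 40 mice, with group means removed (left) and with the GC and length trends of each library removed as well (right), on a colour scale from -1 to 1. The pale blocks between the first 5 and the last 4 genes on the left, such as 0.05 for Mag with Ermn, mostly fill in on the right, where Mobp and Opalin remain the pale rows.

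**Figure D5:**
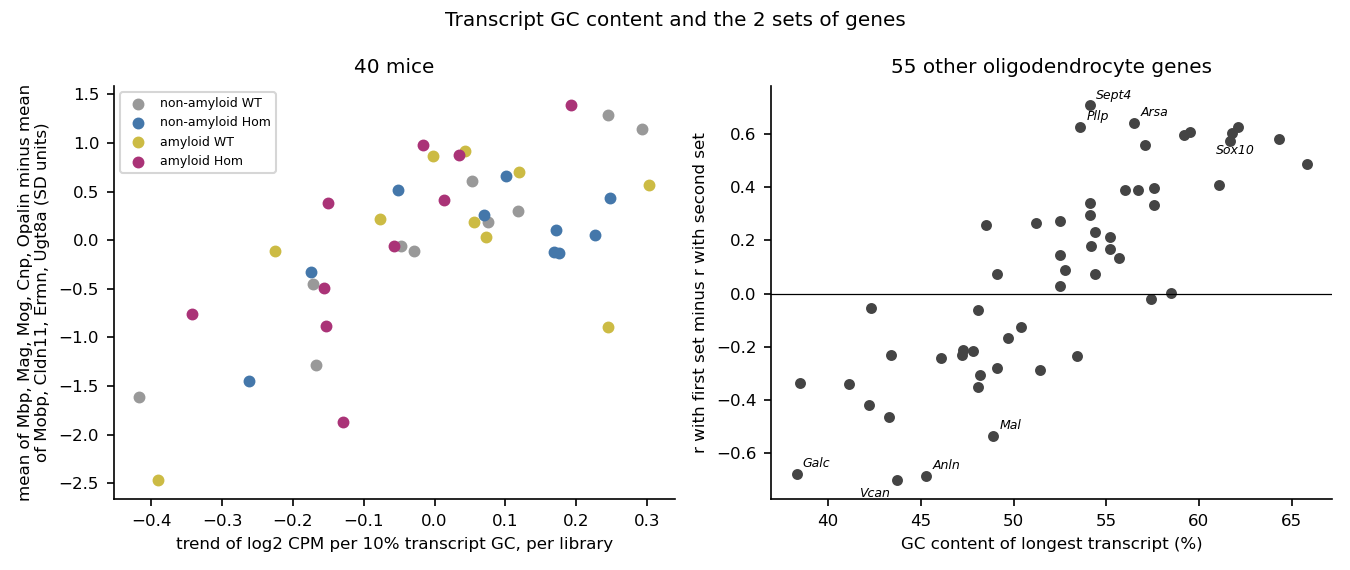
Left, each library's trend of log2 CPM per 10% transcript GC against the difference between the means of the 2 sets of genes in SD, for 40 mice coloured by group. The trend is drawn with its group means kept, whereas r = 0.707 was taken with them removed. Right, GC content of the longest transcript against the difference between a gene's correlations with the 2 sets, for 55 other oligodendrocyte genes (r = 0.821), with AT-rich Galc, Vcan and Anln at the bottom and GC-rich Sox10 near the top.

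Of 15093 genes outside the lists with a mean of at least 1 CPM, those most like the mean of the 9 over the 40 mice were Prr18 (r = 0.897), Prr5l (r = 0.892), Plekhh1 (r = 0.840), Bcas1 (r = 0.834) and Tmem125 (r = 0.827), followed by Myo1d, Tmem63a, Ttyh2, Gm21975 and Tmcc3 at 0.787 to 0.747. Within the lists, Tmem88b (r = 0.896), Gpr37 (r = 0.855) and Gjb1 (r = 0.837) were closest. The 6 precursor markers lay between -0.113 for Matn4 and 0.144 for C1ql1, with Pdgfra at -0.058. The 4 markers of newly formed oligodendrocytes were divided, with Enpp6 at 0.774, Neu4 at 0.201, Gpr17 at -0.042 and Bmp4 at -0.210.

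The summed levels of other cells' markers followed the mean of the 9 genes weakly, with r of -0.174 for 6 neuron markers, -0.030 for 6 astrocyte, 0.249 for 6 microglia and -0.178 for 4 endothelial markers. Single members differed. Mbp had r = -0.625 with the neuron sum and Ermn 0.171, and Mag had r = -0.444 with the astrocyte sum and Ermn 0.476. Markers of neighbouring tissue were uneven between mice, with summed levels of 383.5 to 1571 CPM for 6 striatum markers and 5.69 to 659 CPM for 4 choroid plexus markers, and had r of 0.084 and 0.081 with the mean of the 9. All 6 striatum markers were lower in amyloid than non-amyloid mice of each genotype, with median log2 differences of -0.48 in WT and -0.42 in Hom mice. Of these, 2 in WT and 1 in Hom mice were called lower, beside 7.95% and 6.56% of all genes called in either direction. At an unadjusted p under 0.05 by the edgeR test, 4 were lower in each genotype, beside 20.9% and 22.6% of all genes. The 4 choroid plexus markers were higher in amyloid mice of each genotype, and 0 were called. The part of these tissues in the results was not tested.

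The wider oligodendrocyte genes were read from 6 lists of 56 genes, of which 55 were tested. They covered 15 other membrane proteins of myelin, 14 markers of mature oligodendrocytes, 7 enzymes and carriers of myelin lipids, 9 transcription factors of the lineage, 7 precursor markers, 1 of them not matched, and 4 markers of newly formed cells. Between Hom and WT amyloid mice 0 of the 55 were called by edgeR or limma-voom, beside 0.0753% of all genes by edgeR. DESeq2 called 1, the transcription factor Sox8, and the share of all genes it called is not given here. At an unadjusted p under 0.05 by the edgeR test, 1 was higher and 3 were lower, beside 9.67% of all genes in either direction. The 4 were Sox8 (31.1 and 26.1 CPM in Hom and WT mice, log2 fold change 0.26, adjusted p = 0.123), the actin-severing Gsn (-0.25, adjusted p = 0.425), the glycolipid carrier Gltp (-0.20, adjusted p = 0.415) and the sialidase Neu4 (-0.23, adjusted p = 0.394). Between Hom and WT non-amyloid mice 0 were called by edgeR, DESeq2 or limma-voom and 3 were lower at an unadjusted p under 0.05, beside 2.29% of all genes lower, among them the lysophosphatidic acid receptor Lpar1 (-0.205, adjusted p = 0.965).

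Between the WT cohorts 8 of the 55 were called higher and 1 lower in amyloid mice, beside 7.95% of all genes called in either direction. The iron carrier Trf rose from 242 ± 39.4 to 382.8 ± 99.8 CPM (log2 difference 0.66, adjusted p = 5.33e-05) and the lipid carrier Apod from 176.5 ± 16.7 to 236.4 ± 58.2 CPM (0.42, adjusted p = 0.00377). Galc, which breaks down galactolipids, rose by 0.275 with 9 of 10 amyloid mice above all non-amyloid mice, and Gltp, Gsn, Olig2, Zfp488 and the precursor marker Matn4 rose by 0.27 to 0.39, while Sox8 fell by 0.31. In Hom mice 4 of 55 rose, which were Trf (0.50, adjusted p = 0.00381), Apod (0.375, adjusted p = 0.0155), Evi2a (0.32, adjusted p = 0.0415) and Tcf7l2 (0.46, adjusted p = 0.0431), and 0 fell. That count was near the 6.56% of all genes called there.

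A list of 6 genes that oligodendrocytes and other glia express around plaques was read as well. Between cohorts 5 were called higher in WT and 3 in Hom mice, beside 7.95% and 6.56% of all genes called in either direction. In WT mice C4b, a complement component, rose from 20.2 ± 1.97 to 182.7 ± 91.7 CPM between the non-amyloid and amyloid cohorts (log2 difference 3.18, adjusted p = 1.74e-14), and Serpina3n, a protease inhibitor, from 13.9 ± 1.04 to 107 ± 81.4 CPM (2.95, adjusted p = 2.19e-12). B2m, H2-D1 and H2-K1 of the class I antigen-presenting complex rose as well, so that 5 of the 6 were called, and Il33 was not. In Hom mice C4b (2.23), Serpina3n (1.57) and B2m (0.80) were called. All 6 were higher there at an unadjusted p under 0.05 by the edgeR test, beside 22.6% of all genes in either direction. Between Hom and WT amyloid mice 0 of the 6 were called by the edgeR test, beside 0.0753% of all genes. At an unadjusted p under 0.05, 5 were lower, beside 9.67% of all genes in either direction. C4b was at -0.96 (adjusted p = 0.0923) and Serpina3n at -1.44 (adjusted p = 0.0554). The study, which left out an amyloid Hom female kept here, reported Serpina3n as downregulated in Hom mice. The 6 microglia markers were all called higher in amyloid WT mice. Astrocytes and microglia express several of these genes too, so the cell in which they rose cannot be read from bulk RNA.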

How the data were processed

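The deposited table holds raw counts of reads per gene and library, which the authors made by aligning paired-end poly-A RNA reads to mm10 and counting them over genes. The methods name MAP-RSeq 2.1.1 with TopHat 2.1.0, Bowtie 1.1.2 and featureCounts 1.4.6-p5, whereas the submitters' processing notes name STAR 2.5.2b and featureCounts 1.5.1, and which made the table is not given in the sources used here. The study left out 1 amyloid Hom female for its low gene count percentage and its strand check, and the labels do not name it. Mouse 19 is an amyloid Hom female with the smallest library and the highest antisense share, and whether it was that animal is not stated. All 40 libraries were kept here, so calls can differ from those of the study. Between Hom and WT amyloid mice the study reported many more changed genes, with Trem2 and Gfap among those it found lower. Here 16 genes were called. Trem2 was at -0.875 (adjusted p = 0.0763) and Gfap at -0.949 (adjusted p = 0.083) by the edgeR test, and neither was called. The reason for this gap was not tested.

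A gene was kept if 4 or more libraries held 10 or more of its counts, and kept genes were scaled by TMM and tested with edgeR 4.0.16 (quasi-likelihood F test, R 4.3.3) with Benjamini-Hochberg adjustment over all 21253 genes. A gene was called at an adjusted p under 0.05 and a log2 change over 0.25. Comparisons within a cohort used its 20 libraries, and the others all 40. The test recovered known changes in simulated counts. Those changes were larger than any difference of the myelin genes under these settings, and the counts held no GC trend, so power for smaller changes was not measured. Under an alternative setting Mbp reached 0.65 for genotype by sex in non-amyloid mice and was not called. No 2 libraries of a group were alike within sampling noise (lowest chi-square per degree of freedom 13.7).

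Alternatives were DESeq2 1.42.0, limma-voom (limma 3.58.1), other scalings and filters, and leaving out libraries. An offset for each library's GC and length trends was added after the data had been seen. Correlations used log2 CPM with a prior count of 2. The 9 genes and 98 list genes, of which 96 were matched by name and 1 by identifier, were chosen with earlier results of these data known. Genes named were the 9, Trem2, from each list the 2 of highest mean CPM, the 2 of lowest p in amyloid Hom against WT and any called, and the 10 outside the lists most correlated with the 9, while other names were chosen after their values were seen. Some listed genes are not reported here by name.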

Additional observations from a re-analysis of the deposited data

How the results depend on the processing

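No call was made among the 9 genes under any alternative run for the genotype, interaction, sex or WT cohort comparisons. The study bred its genotypes as littermates, but the labels used here name no litter, so no paired analysis was possible. In Hom mice the 2 called between cohorts became 1 with no filter on low counts, with filterByExpr and with the GC and length offset (chosen after seeing the data), and 0 to 2 when single libraries were left out. The other oligodendrocyte genes called there were 4, 2 with no filter or filterByExpr, 5 with the offset, and 2 to 5 with single libraries left out. In WT mice they were 9, 11 with the offset, and 6 to 10 with single libraries left out. With the offset 9.84% of all genes were called between WT cohorts and 6.94% between Hom cohorts. The share of all genes is not given here for the other alternatives. Between WT cohorts Gsn, Olig2 and Zfp488 were not called with no filter, Gsn was not with filterByExpr, and Olig2 and Sox8 were not with limma-voom. In amyloid Hom against WT DESeq2 called 1. The median correlation was 0.549 with the offset against 0.465. Leaving out each library was not run for the sex comparisons, except mouse 19. Each of the 9 genes had at least 895 counts in every library.

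Reversals of sign were all of log2 values that passed no test. With limma-voom Opalin was at -0.01 in amyloid Hom against WT, Mbp at 0.02, Mobp at 0.00, Cnp at 0.01 and Cldn11 at 0.01 in non-amyloid Hom against WT, Cldn11 at -0.04 in the interaction, Mog at 0.00 and Cnp at 0.03 between WT cohorts, Mbp at -0.02 between Hom cohorts, and Mobp at 0.00 and Ermn at -0.02 between sexes. For genotype by sex limma-voom gave Cnp -0.05 in amyloid, and Mog 0.14, Mobp 0.15, Ermn 0.09 and Ugt8a 0.10 in non-amyloid mice. DESeq2 gave Mbp 0.00 between WT and -0.01 between Hom cohorts and Mag 0.00 between sexes. Upper-quartile scaling gave Mbp 0.01 in the interaction and Mag 0.01 between Hom cohorts, and library size alone gave Mag 0.00 there and 0.00 between sexes. With no filter Mbp was at 0.00 and -0.01 between WT and Hom cohorts and Mag at -0.01 between sexes, with filterByExpr Mbp was at -0.01 between Hom cohorts and Mag at -0.01 between sexes, and in the 20 libraries alone Mbp was at -0.01 between Hom cohorts. The offset gave Mbp 0.06 and Mag 0.11 in the interaction, Mbp -0.06, Mag -0.01 and Opalin -0.04 between WT cohorts, and Mbp 0.00, Mog -0.02 and Mag 0.10 between Hom cohorts. The cause was not tested.

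With single libraries left out, values that changed sign ranged in amyloid Hom against WT from -0.09 to 0.00 for Cldn11, -0.08 to 0.01 for Mbp, -0.01 to 0.20 for Opalin and 0.00 to 0.14 for Ugt8a. In non-amyloid Hom against WT they ranged from -0.05 to 0.03 for Cnp, -0.09 to 0.02 for Mag and -0.07 to 0.04 for Mbp. In the interaction they ranged from -0.03 to 0.06 for Cldn11, -0.13 to 0.01 for Mag and -0.06 to 0.04 for Mbp. Between WT cohorts they ranged from -0.11 to 0.00 for Cnp, 0.00 to 0.16 for Ermn, -0.03 to 0.10 for Mag, -0.04 to 0.06 for Mbp, -0.13 to 0.10 for Opalin and -0.04 to 0.09 for Ugt8a, and between Hom cohorts from -0.07 to 0.05 for Mag and -0.05 to 0.05 for Mbp.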
